A study of Homo sapiens with 4 samples.

Results

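The genes described here encode 46 secreted factors and shed surface proteins of the senescence-associated secretory phenotype, and the question was where PML peaks lay around them. A peak belonged to one of these genes when the deposited annotated table gave that gene as nearest, and every peak of a gene was used, near its start or far from it. Of the 46 genes, 32 were the nearest gene of at least 1 peak, and together they held 132 of the 68937 peaks in the list. The 46 genes were divided by role into 18 cytokines and chemokines, 13 proteases and protease inhibitors, 11 growth factors and insulin-like growth factor (IGF) binding proteins, and 4 shed receptors and adhesion molecules.

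The peaks come from chromatin immunoprecipitation followed by sequencing (ChIP-seq) of PML in MDA-MB-231, an established line of human triple-negative breast cancer cells, with a Bethyl Laboratories antibody against PML. The 4 libraries were 2 PML ChIP libraries and 2 input libraries from the same line, grown in serum-containing medium with no other treatment, genotype or time point named. The duplicates were merged before peaks were called, so the table holds 1 list, no value below has a replicate error, and no comparison below could be set against a spread between replicates. The table holds neither expression nor a senescent condition, and it does not give the read depth of the libraries.

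Cells that enter senescence stop dividing and release inflammatory cytokines, chemokines, matrix proteases with their inhibitors, and growth factor regulators, a mixture known as the senescence-associated secretory phenotype. Transcription of many of these genes depends on the factors NF-kB, C/EBP beta and AP-1. PML is the organising protein of PML nuclear bodies and is itself known as an inducer of senescence when overexpressed.

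The start of each gene is called its TSS, and a promoter peak is a peak whose centre lies within 1000 bp of the TSS of the gene named nearest. The sequences below show what PML peaks covered, or did not cover, at the starts of 7 of these genes. For each of the 4 roles, the gene with the highest-scoring promoter peak among those with a RefSeq promoter window on the list used here is shown, namely IL11, PLAU, ANGPTL4 and TNFRSF1A. IL1A and MMP10 are shown as a cytokine and a protease gene without a promoter peak. IL6 was added after its values were seen, because a peak at its start is named for another gene. Each run is the 250 bases before the start, 5′ to 3′ on the gene's strand, from RefSeq on GRCh38.p14. Capitals mark letter matches to TGACTCA and its variant TGAGTCA (AP-1 words), TTGCNNAA (the C/EBP word), TATAAA (the TATA word), CCAAT, or the NF-kB word, all searched on both strands. IL11 is chr19:55370464-55370713 on the minus strand, and PLAU is chr10:73910882-73911131 on the plus strand. ANGPTL4 is chr19:8363905-8364154 on the plus strand, and TNFRSF1A is chr12:6342077-6342326 on the minus strand. IL1A is chr2:112784494-112784743 on the minus strand, MMP10 is chr11:102780629-102780878 on the minus strand, and IL6 is chr7:22726950-22727199 on the plus strand.
IL11: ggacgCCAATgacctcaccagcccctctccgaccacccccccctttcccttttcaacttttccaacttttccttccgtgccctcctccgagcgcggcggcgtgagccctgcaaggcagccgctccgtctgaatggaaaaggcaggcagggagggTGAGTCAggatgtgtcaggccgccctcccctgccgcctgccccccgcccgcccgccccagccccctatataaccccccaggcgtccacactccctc
PLAU: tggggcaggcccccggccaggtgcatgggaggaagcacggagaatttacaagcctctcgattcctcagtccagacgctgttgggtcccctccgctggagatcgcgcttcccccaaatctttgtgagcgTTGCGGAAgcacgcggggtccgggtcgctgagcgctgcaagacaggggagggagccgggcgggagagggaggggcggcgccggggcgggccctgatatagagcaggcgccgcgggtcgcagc
ANGPTL4: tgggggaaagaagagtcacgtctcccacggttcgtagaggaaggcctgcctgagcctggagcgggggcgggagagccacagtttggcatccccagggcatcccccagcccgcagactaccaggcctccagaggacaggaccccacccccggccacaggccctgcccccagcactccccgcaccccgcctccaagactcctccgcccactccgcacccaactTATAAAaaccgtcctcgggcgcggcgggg
TNFRSF1A: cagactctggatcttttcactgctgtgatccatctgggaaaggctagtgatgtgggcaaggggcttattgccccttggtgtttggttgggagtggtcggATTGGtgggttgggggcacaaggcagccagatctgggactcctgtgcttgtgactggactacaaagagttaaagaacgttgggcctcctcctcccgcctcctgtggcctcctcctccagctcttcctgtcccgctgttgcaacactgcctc
IL1A: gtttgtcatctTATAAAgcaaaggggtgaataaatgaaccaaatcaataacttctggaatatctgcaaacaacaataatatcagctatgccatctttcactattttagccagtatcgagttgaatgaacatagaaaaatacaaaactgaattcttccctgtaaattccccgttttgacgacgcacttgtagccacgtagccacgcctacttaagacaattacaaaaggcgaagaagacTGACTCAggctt
MMP10: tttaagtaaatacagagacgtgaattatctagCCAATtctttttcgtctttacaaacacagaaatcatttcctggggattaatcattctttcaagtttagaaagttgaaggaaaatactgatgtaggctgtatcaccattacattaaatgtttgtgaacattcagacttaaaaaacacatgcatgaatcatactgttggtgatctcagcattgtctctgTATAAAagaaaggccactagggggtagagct
IL6: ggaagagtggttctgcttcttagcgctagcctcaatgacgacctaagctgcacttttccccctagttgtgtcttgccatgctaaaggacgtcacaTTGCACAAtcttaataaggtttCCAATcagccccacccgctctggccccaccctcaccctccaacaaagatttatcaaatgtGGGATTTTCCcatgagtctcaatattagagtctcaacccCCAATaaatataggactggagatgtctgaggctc

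The windows used for IL11, PLAU and ANGPTL4 lay wholly inside a peak, 300 of 300 bases each once the 50 bases after the start are included. Another RefSeq window of PLAU, from 73910360 to 73910659, overlapped no peak. In TNFRSF1A only the 50 bases after the start lay in the promoter peak, so none of the printed run did. In IL6, 245 of the 300 bases of the window lay in a peak. No peak touched the windows of IL1A or MMP10. The IL11 run held a CCAAT word 245 bases and an AP-1 word 96 bases before the start. The PLAU run held a C/EBP word 122 bases before the start, the ANGPTL4 run a TATA word 29 bases before it, and the TNFRSF1A run a CCAAT word on the other strand 151 bases before it. The IL1A run held a TATA word 239 bases and an AP-1 word 12 bases before the start. Another RefSeq window of IL1A, from 112784351 to 112784650, held no TATA word. The MMP10 run held a CCAAT word 218 bases and a TATA word 31 bases before the start. The IL6 run held a C/EBP word 155 bases, CCAAT words 133 and 34 bases, and an NF-kB word 73 bases before the start. Such a match describes the letters and does not show that a factor binds.

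Secretory factor genes as a whole had PML peaks at promoters at a share close to that of all genes. A promoter peak was present at 25 of the 46 genes (54.3%, exact 95% interval 39 to 69.1%), against 54.5% of the 20037 RefSeq protein-coding genes. Counting only genes named somewhere in the table, the share was 25 of 32 (78.1%, interval 60 to 90.7%) against 78.9%. The nearest-gene column named 69.6% of the secretory genes and 69% of all protein-coding genes. A distal peak, centred over 10000 bp from the TSS, was given to 16 of the 46 (34.8%, interval 21.4 to 50.2%) against 32.3% of all genes. All 4 shares of the secretory genes lie close to the background, and each background value lies inside the interval of the secretory genes. These intervals are exact Clopper-Pearson intervals and cover counting error over genes only.

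**Figure D1:**
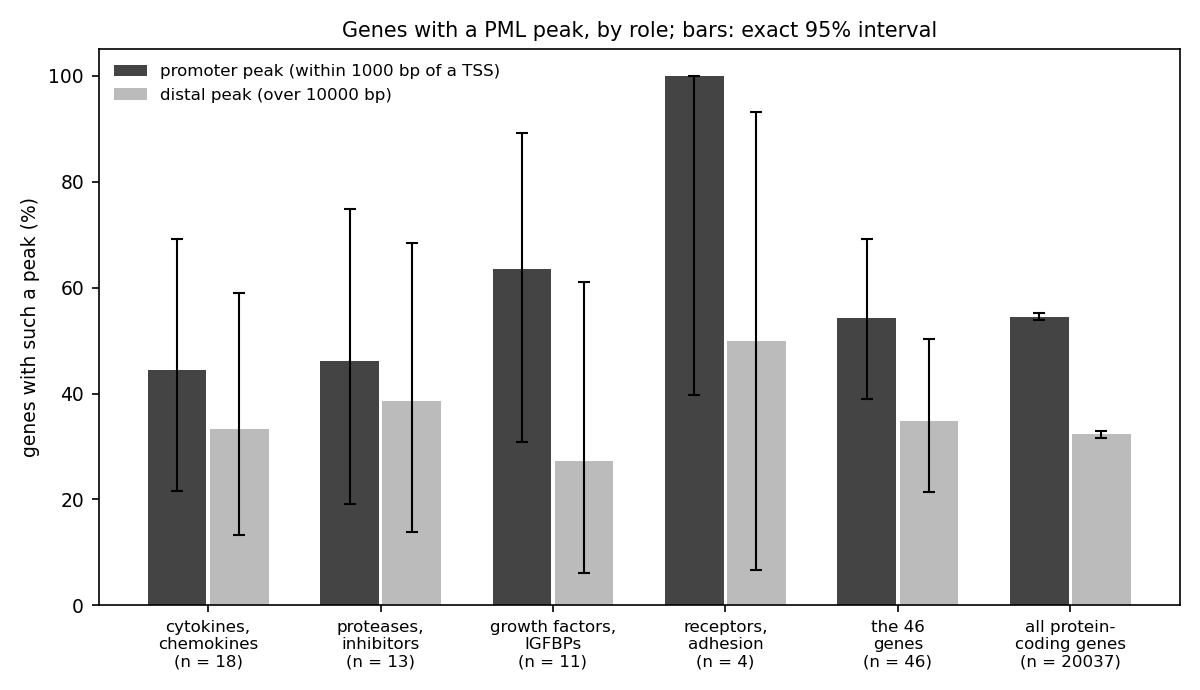
Share of genes (%, vertical axis) with a promoter peak (dark bars) or a distal peak (light bars) for the 4 roles, the 46 genes and all protein-coding genes, with error bars for the exact 95% interval. The promoter share was 44.4% in cytokines and chemokines, 46.2% in proteases and inhibitors and 63.6% in growth factors and IGF binding proteins, and the intervals of these roles overlap.

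Each peak has a whole-number score given by the authors, whose scale is not stated, and here it only ranks peaks within the list, where scores run from 13 to 5641 with a median of 34. Where secretory genes had a promoter peak, the highest score had a median of 72 (exact interval of the median 55 to 97), against 63 for all protein-coding genes with one. The interval holds the value of all genes. Their promoter peaks had a median width of 930 bp against 765 bp. Of the 25 promoter peaks, 22 were centred downstream of the TSS (88%, interval 68.8 to 97.5%), against 69.8% of the promoter peaks of all protein-coding genes. That value lies inside the interval, near its lower end. The 3 centred upstream were those of IGFBP7, TIMP1 and ICAM1. The centres lay a median of 218 bp from the TSS against 182 bp in all genes.

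**Figure D2:**
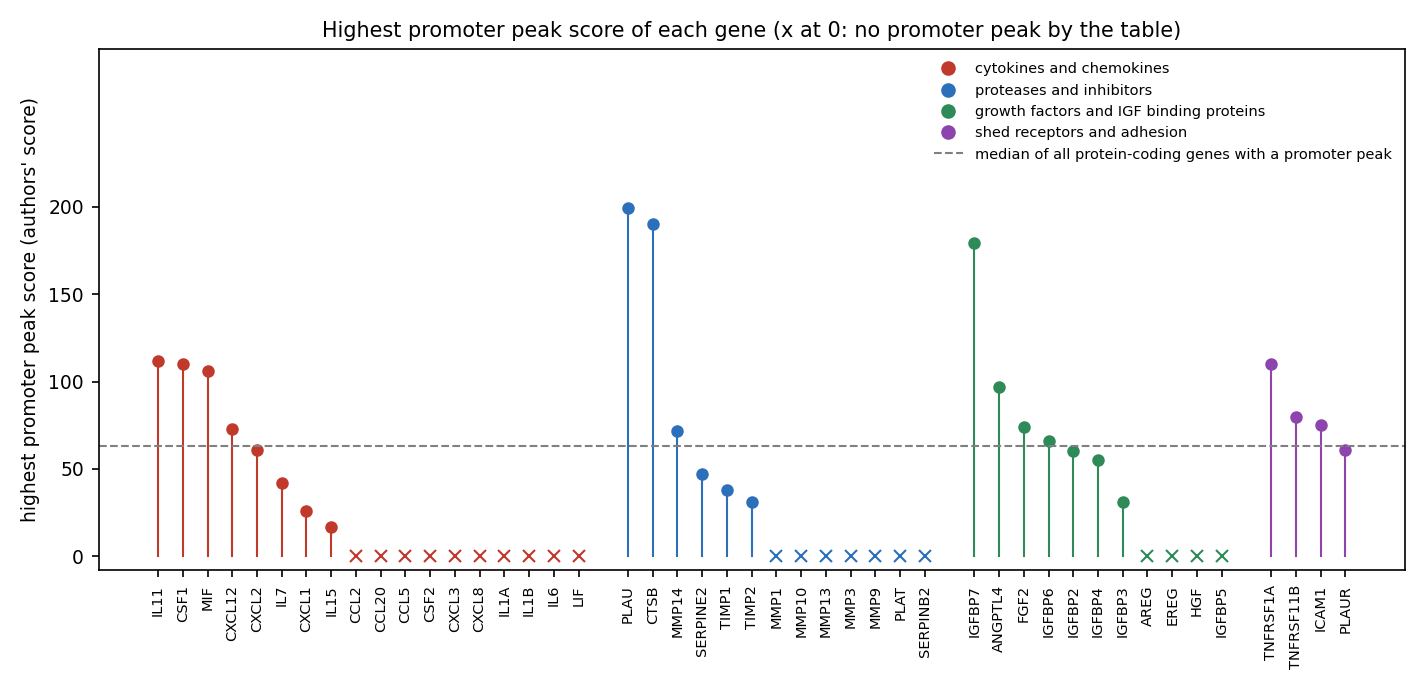
Highest promoter peak score (authors' score, vertical axis) of each of the 46 genes, grouped by role, with a cross at 0 for a gene without a promoter peak in the table and a dashed line at 63, the median of all protein-coding genes that have one. PLAU (199), CTSB (190) and IGFBP7 (179) stand highest, and the crosses include IL6, CXCL8, CCL2 and 5 of the 6 matrix metalloproteinases.

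Among cytokines and chemokines, 8 of 18 had a promoter peak (44.4%, interval 21.5 to 69.2%). The highest scores belonged to IL11, a cytokine of the IL-6 family, CSF1, the growth factor of macrophages, and MIF, macrophage migration inhibitory factor. The IL11 peak had a score of 112 and ran on chromosome 19 from 55368722 to 55370977. It was 2256 bp wide, covered the TSS and had its centre 614 bp downstream, in intron 1 of 4. The CSF1 peak scored 110 and lay on chromosome 1 from 109910253 to 109911570, 1318 bp wide and centred 62 bp from the TSS. The MIF peak scored 106 and lay on chromosome 22 from 23894058 to 23895681, 1624 bp wide, with its centre 486 bp downstream, in exon 2 of 3. These scores placed the peaks among the upper 5.39%, 5.52% and 6.05% of the list.

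The other promoter peaks of this role were weaker by score. CXCL12, the ligand of CXCR4, had 73, and CXCL2, a neutrophil chemokine, had 61. IL7, a lymphocyte growth cytokine, had 42 and IL15, which sustains natural killer cells, had 17. CXCL1, another neutrophil chemokine, had 26. CXCL1 and IL15 fall below the list median of 34, as do TIMP2 and IGFBP3 with 31 each, and these are the 4 promoter peaks of the 25 below it. By kind, 3 of 8 chemokines and 5 of 10 other cytokines had a promoter peak, and the intervals of these shares (8.52 to 75.5% and 18.7 to 81.3%) overlap widely.

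The 10 genes of this role without a promoter peak in the table include the most studied cytokines of senescent cells. IL6, CXCL3, CXCL8, CCL2, CCL5 and CCL20 were the nearest gene of no peak. IL1A, IL1B, LIF and CSF2 were named in the table, with peaks outside the promoter window.

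A peak did lie at the start of IL6, the central inflammatory cytokine of this programme, under the name of another gene. A peak scored 48 was called on chromosome 7 from 22727005 to 22727982, from 195 bp before the RefSeq start of IL6 to 782 bp after it, and its centre was annotated to IL6 exon 2 of 5. The table named the antisense gene LOC541472 as nearest, at 127 bp, so IL6 itself appears nowhere in the nearest-gene column. The peak covers the NF-kB and C/EBP letters of the IL6 run printed above. A similar case was LIF, a cytokine of the IL-6 family that maintains stem cells. A peak on chromosome 22 from 30245626 to 30246776, also with a score of 48, reached over the LIF start but was named for LOC91370, 9 bp away, and annotated as the promoter of LIF-AS2. ChIP-seq does not separate the strands, so these peaks cannot be given to the sense or the antisense gene from these data.

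Counting peaks near a start whatever gene the table named for them brought in IL6 and LIF and no other gene of the 46. The share with a promoter peak was then 27 of 46 (58.7%, interval 43.2 to 73%) against 61.3% of all protein-coding genes treated the same way. Among cytokines and chemokines it was 10 of 18 (55.6%, interval 30.8 to 78.5%). This count was added after the data were seen. It could not reach a gene with neither a RefSeq promoter window nor a peak of its own name, so the 61.3% is a floor.

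LIF also had 4 peaks of its own, all upstream and between 1397 and 9570 bp from the TSS. Their scores were 90, 68, 87 and 98 in order of distance, each above the 48 of the peak at the start. The peak on chromosome 22 from 30252115 to 30254616 was 2502 bp wide, the widest of the 132. A further 4 peaks with scores of 21 to 42 lay in or beside the gene and were named for LIF-AS1 or LOC91370.

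IL1A and IL1B, neighbouring genes for the apical cytokines of the secretory programme, had peaks around them but none at a TSS. IL1B was nearest to 10 peaks with scores from 16 to 78 and a median of 28. The nearest to its TSS were centred 2676 bp upstream, with a score of 47, and 3241 bp downstream in exon 4 of 7, with a score of 36. A peak in exon 5 scored 48 and one in the last exon, in the 3′ UTR, scored 24. IL1A had 1 peak, scored 45, on chromosome 2 from 112798117 to 112798456 and 12888 bp upstream. CSF2, which encodes the cytokine GM-CSF, had 1 peak 43124 bp downstream, in an L1PA7 repeat, with a score of 21.

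Proteases and inhibitors had promoter peaks in 6 of 13 genes (46.2%, interval 19.2 to 74.9%), and this role held the highest scores of the 46 genes. PLAU, the urokinase that activates plasminogen, had the highest promoter score, 199, for a peak on chromosome 10 from 73910685 to 73911814. It was centred 117 bp downstream of the TSS, was annotated as non-coding exon 6 of 6 of the overlapping gene C10orf55, and belonged to the upper 1.27% of the list. A second PLAU peak 4209 bp upstream scored 149, and 7 peaks in all lay between 5584 bp upstream and 5322 bp downstream. CTSB, the lysosomal cysteine protease cathepsin B, reached 190 with a peak on chromosome 8 from 11867019 to 11868576, centred 290 bp downstream in intron 1 of 11. MMP14, a membrane-bound matrix metalloproteinase that activates MMP2, had 72 on chromosome 14 from 22836664 to 22837427, centred 460 bp downstream.

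The inhibitors with a promoter peak scored lower than these proteases. SERPINE2, an inhibitor of thrombin and plasminogen activators, had 47, and the metalloproteinase inhibitors TIMP1 and TIMP2 had 38 and 31. The 3 values lie below the 3 protease values, and they are single genes in 1 list. SERPINB2, an inhibitor of urokinase, was the nearest gene of no peak.

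Of the 6 matrix metalloproteinases, MMP14 alone had a promoter peak. MMP1, MMP3, MMP10 and MMP13, the secreted collagenases and stromelysins on chromosome 11, were the nearest gene of no peak. MMP9, a gelatinase, had a single peak, scored 106, on chromosome 20 from 46013896 to 46014435. It lay 5257 bp downstream of the TSS, within the gene and in exon 3 of 3 of the antisense gene SLC12A5-AS1. PLAT, the tissue plasminogen activator, had 1 peak with a score of 31 in intron 5 of 13, 19947 bp from the TSS. So the plasminogen activator PLAU carried the strongest promoter peak of the 46 genes by score, and PLAT carried none.

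Growth factors and IGF binding proteins had promoter peaks in 7 of 11 genes (63.6%, interval 30.8 to 89.1%). The 6 IGF binding proteins, which hold IGFs in the extracellular space, account for 5 of the 7. IGFBP7 reached 179 with a peak on chromosome 4 from 57109729 to 57111363, 1635 bp wide and centred 161 bp upstream. IGFBP6 followed with 66, IGFBP2 with 60, IGFBP4 with 55 and IGFBP3 with 31. IGFBP5 was just outside the window, with a peak of 48 centred 1135 bp downstream, in intron 1 of 3. Peaks of PLAUR at 1031 bp and LIF at 1397 bp also lay just outside, and TIMP2 at 664 bp and IL11 at 614 bp were the farthest inside.

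Of the 5 ligands in this role, ANGPTL4 and FGF2 had promoter peaks. ANGPTL4, a regulator of lipoprotein lipase and of vessels, had 97 on chromosome 19 from 8363859 to 8364785, in exon 1 of 6. Another ANGPTL4 peak with a score of 75 lay 1913 bp upstream, and 7 peaks in all were named for the gene. FGF2, a fibroblast growth factor, had 74 on chromosome 4 from 122826759 to 122827781, in exon 1 of 3 and 439 bp downstream. AREG and EREG, ligands of the EGF receptor, and HGF, the ligand of MET, were the nearest gene of no peak. The shares were thus 5 of 6 binding proteins (83.3%, interval 35.9 to 99.6%) and 2 of 5 ligands (40%, interval 5.27 to 85.3%).

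All 4 shed receptors and adhesion genes had a promoter peak, a number for which the exact interval reaches down to 39.8%. TNFRSF1A, a receptor of tumour necrosis factor, had 110 on chromosome 12 from 6341130 to 6342076, centred 473 bp downstream in intron 1 of 8. A stronger peak lay in the same intron, 5597 bp downstream, with a score of 169 and a width of 2419 bp from 6335270 to 6337688. TNFRSF1A was the nearest gene of 10 peaks, 8 of them between 1000 and 10000 bp from its TSS. TNFRSF11B, the decoy receptor osteoprotegerin, had 80 at 63 bp. ICAM1, an adhesion molecule for leukocytes, had 75 in a peak 2436 bp wide on chromosome 19 from 10269342 to 10271777, centred 561 bp upstream. PLAUR, the urokinase receptor, had 61 at 32 bp and a second peak of 26 at 1031 bp.

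Set side by side, the roles could not be separated by how often their genes had a promoter peak. The shares of 44.4% for cytokines and chemokines, 46.2% for proteases and inhibitors and 63.6% for growth factors and IGF binding proteins have intervals that overlap one another and hold the 54.5% of all genes. Their median highest promoter scores were 67, 59.5 and 66, and 77.5 for the receptors and adhesion genes, with ranges of 17 to 112, 31 to 199, 31 to 179 and 61 to 110. The difference between roles was not tested, since 1 merged list gives no replicate and genes are not replicates. Within each role the spread was wider than the gap between the medians.

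Distal peaks were unevenly spread over the 46 genes. A distal peak was given to 6 of 18 cytokines and chemokines (33.3%), 5 of 13 proteases and inhibitors (38.5%), 3 of 11 growth factors and binding proteins (27.3%) and 2 of 4 receptors and adhesion genes (50%). Of the 63 distal peaks, 18 were named for CXCL12, 10 for IL15, 9 for CTSB and 7 for IGFBP7. Distal peaks without a promoter peak were seen at 4 of the 46 genes, IL1A, IL1B, CSF2 and PLAT. Among all 20037 protein-coding genes they were seen at 1927.

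CXCL12 was the nearest gene of 21 peaks, the most of the 46. Of its 18 distal peaks, 16 lay upstream, between 11303 and 262324 bp from the TSS, in DNA annotated as intergenic. Their scores ran from 14 to 67, and the peak of 67 lay 13641 bp upstream on chromosome 10 from 44398389 to 44399087. The promoter peak of 73, on chromosome 10 from 44384202 to 44385556, was the highest of the gene. The table gives each peak to the nearest gene, so a count of peaks per gene does not show contact with that gene.

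IL15 had 11 peaks, 10 of them distal. Of these 10, 8 lay in annotated repeats (80%, interval 44.4 to 97.5%), against 34.2% of distal peaks of all protein-coding genes. The repeats were L1 elements, the long terminal repeats LTR12C and LTR12E, THE1D-int and AluSx. The peak in LTR12E, with a score of 93, was the highest-scoring distal peak of the 46 genes, on chromosome 4 from 141605431 to 141605945 and 30895 bp upstream. The LTR12C peak in intron 3 scored 61. The promoter peak of IL15 scored 17. The treatment of reads that map to several copies of a repeat is not stated in the sources. Among all distal peaks of the 46 genes, 19 of 63 lay in repeats (30.2%, interval 19.2 to 43%), near the 34.2% of all genes. At the other genes rich in distal peaks, repeats held 4 of 18 for CXCL12 (22.2%), 3 of 9 for CTSB (33.3%) and 1 of 7 for IGFBP7 (14.3%).

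In the other roles, the highest-scoring distal peaks were those of CTSB and MMP14, of TNFRSF1A and TNFRSF11B, and of IGFBP7. The CTSB peak scored 80 in intron 6 of 11, 18920 bp from the TSS, and CTSB had 13 peaks in all. The MMP14 peak scored 68 and lay 16681 bp downstream, on chromosome 14 from 22852909 to 22853623. TNFRSF1A had 51 at 14022 bp, beyond the end of the gene on chromosome 12 from 6327790 to 6328319, and TNFRSF11B had 30 at 47638 bp. IL1B had 78 at 12034 bp, on chromosome 2 from 112824001 to 112825489. IGFBP7 had 9 peaks, each centred upstream, with distal scores from 17 to 36. The 2 highest, 36 and 35, lay 127375 and 113913 bp upstream. Another peak of 35 lay 53510 bp upstream in intron 1 of the antisense gene IGFBP7-AS1. A peak of 26 in intron 1 of 4 of IGFBP7 itself, from 57065574 to 57066295, was named for IGFBP7-AS1 and is not among the 9.

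**Figure D3:**
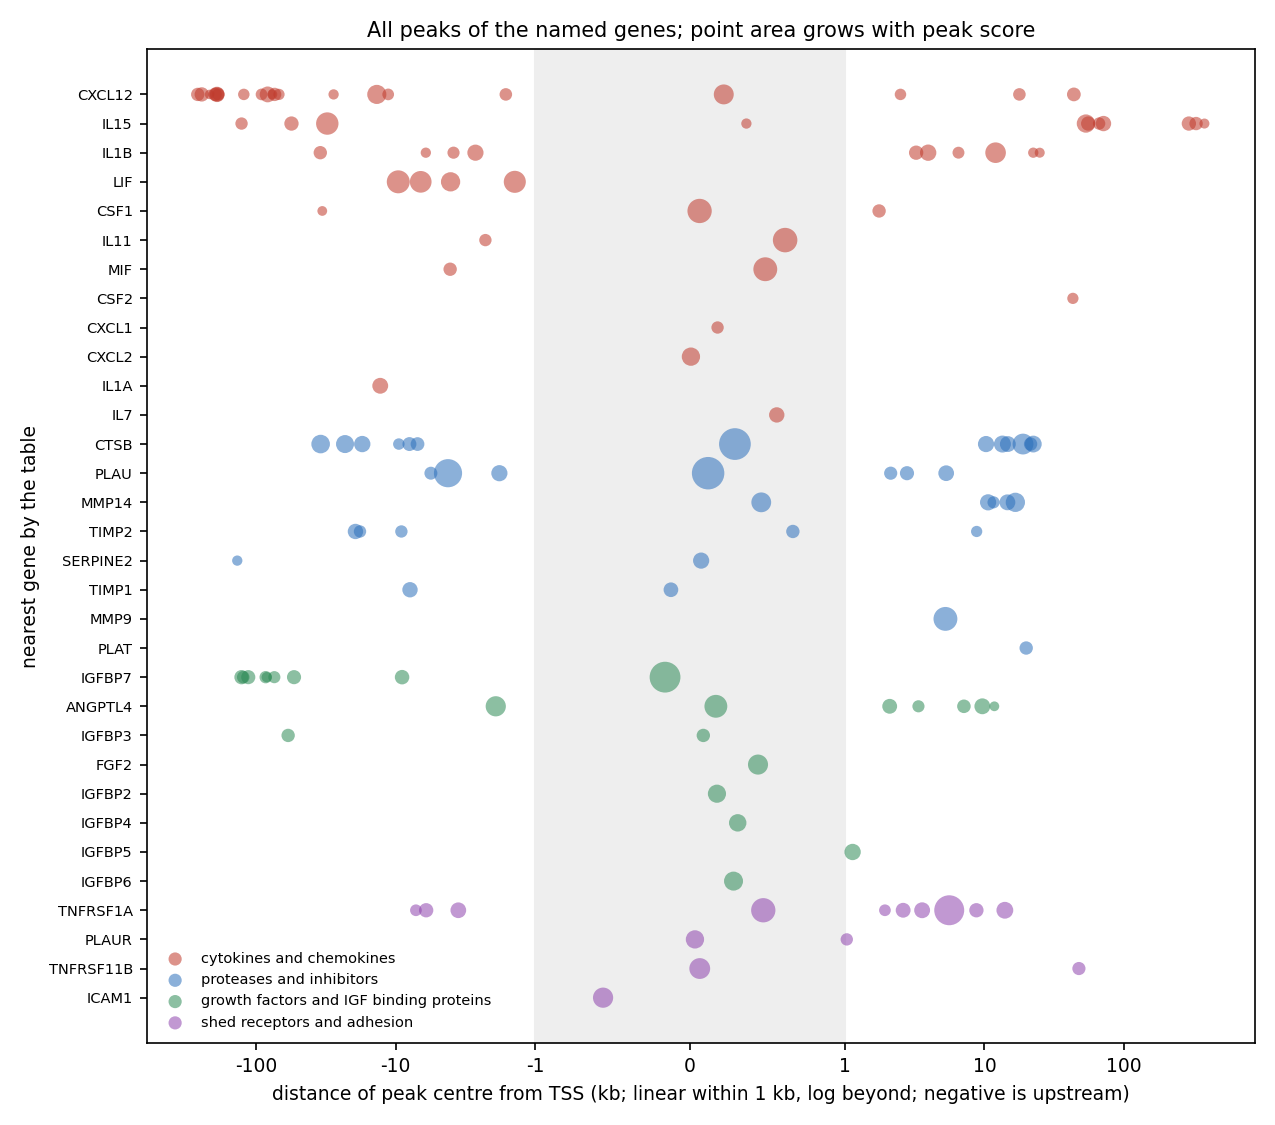
Distance of each of the 132 peaks from the TSS of the gene named nearest (kb, horizontal axis, linear within 1 kb and logarithmic beyond, negative upstream) for the 32 genes with a peak, with point area growing with score and the promoter window shaded. CXCL12 and IGFBP7 peaks extend upstream, IL15 peaks lie on both sides, and the LIF and IL1B peaks stay outside the shaded window.

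By distance, the 132 peaks of the 46 genes were divided into 25 promoter peaks (18.9%, interval 12.6 to 26.7%), 44 between 1000 and 10000 bp (33.3%, interval 25.4 to 42.1%) and 63 distal ones (47.7%, interval 39 to 56.6%). Peaks of all protein-coding genes were at 24.6%, 22.8% and 52.6%. The middle share lay above that of all genes, but TNFRSF1A supplied 8 of its 44 peaks, and PLAU and IL1B 6 each. Without the peaks of these 3 genes the middle share was 22.9% (interval 15.2 to 32.1%), next to the 22.8% of all genes, so the higher share rests on them. Without the peaks of CXCL12 and IL15, which are rich in distal peaks, the 3 shares were 23%, 42% and 35%. Both counts were added after the data were seen, and peaks around 1 gene are not independent. Median scores were 72 for promoter peaks, 36 for the middle class and 31 for distal ones, against 61, 32 and 31 in all genes.

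Broad peaks, at least 2000 bp wide, numbered 5 of 132 (3.79%, interval 1.24 to 8.62%) against 2% of peaks of all protein-coding genes, a value within the interval. They lay at the IL11 and ICAM1 promoters, in the first intron of TNFRSF1A, upstream of LIF and upstream of TIMP2, where the peak scored 26 over 2129 bp.

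The 14 genes that were the nearest gene of no peak included all members of the MMP1/3/10/13 cluster, and several sat in long stretches without any peak. They were IL6, CXCL3, CXCL8, CCL2, CCL5, CCL20, MMP1, MMP3, MMP10, MMP13, SERPINB2, AREG, EREG and HGF. Apart from IL6, none had a peak overlapping the gene. No peak lay within 100 kb of the midpoint of 9 of the 46 genes (19.6%, interval 9.36 to 33.9%), against 10.4% of all protein-coding genes, a value within the interval. The 9 were CXCL8, CCL2, MMP1, MMP3, MMP10, MMP13, AREG, EREG and HGF, and they lie at 5 places in the genome, so they are not 9 independent cases. The median number of peaks within 100 kb was 4 for the 46 genes and 5 for all genes.

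The neutrophil chemokine genes and the EGF-family ligands share 1 region of chromosome 4. From CXCL8 to AREG, 73740569 to 74455005, the 714 kb held 13 protein-coding genes and 3 peaks. These were the CXCL1 promoter peak with 26, from 73869333 to 73869809, the CXCL2 promoter peak with 61, from 74098851 to 74099527, and a peak of 68 at the start of MTHFD2L, which encodes a mitochondrial folate enzyme. CXCL3 lay 60162 bp from the nearest peak, in a stretch of 229 kb without one. CXCL8, which encodes interleukin 8, lay 125617 bp from the nearest peak, in a stretch of 610 kb. AREG and EREG lay together in a stretch of 636 kb, and 2.82% of protein-coding genes were as far as AREG or farther from a peak. For EREG, CXCL8 and CXCL3 this share was 3.85%, 5.83% and 10.1%.

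The metalloproteinase cluster on chromosome 11 held no peak. From MMP10 to MMP13, 102770502 to 102955732, the 185 kb lay within a stretch of 639 kb without one, between peaks named for TMEM123 with a score of 48 and DCUN1D5 with 61. MMP12 lies inside the cluster too and is not one of the 46 genes. The distance to the nearest peak was 311326 bp for MMP10, 293794 bp for MMP1, 248345 bp for MMP3 and 136222 bp for MMP13. In the same order, 2.61%, 2.74%, 3.24% and 5.48% of protein-coding genes were as far or farther from a peak. MMP9 and MMP14, which lie on other chromosomes, had peaks.

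CCL2 and CCL5, chemokines for monocytes and T cells on chromosome 17, lie 1625 kb from end to end. The interval from 34255285 to 35880360 held 15 peaks, named for 15 other genes and none for a chemokine gene. CCL2 lay in a stretch of 1251 kb without a peak, and 1.55% of protein-coding genes were as far or farther from one. CCL5 lay in a stretch of 673 kb, 61483 bp from a peak of 61 named for TAF15. CCL20, on chromosome 2, lay in 254 kb, and SERPINB2, on chromosome 18, in 547 kb. HGF, on chromosome 7, lay in the longest of these stretches, 2308 kb, and 1.08% of genes were as far or farther. For CCL5, CCL20 and SERPINB2 the share of genes as far or farther was 9.86%, 11.8% and 9.37%.

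IL1A and IL1B differed from these clusters. Their interval of 62.9 kb, on chromosome 2 from 112773925 to 112836779, held 7 peaks, or 11.1 per 100 kb. Between CXCL8 and AREG there were 0.42 per 100 kb, and between CCL2 and CCL5 0.923. Within 100 kb of the midpoint lay 21 peaks for IL1A and 16 for IL1B, against a median of 5 for all protein-coding genes. As few peaks or fewer were counted for 86.8% and 81.3% of protein-coding genes. IGFBP2 and IGFBP5, also neighbours on chromosome 2 from 216632828 to 216695549, held 2 peaks in 62.7 kb (3.19 per 100 kb), 1 at each gene. The IGFBP2 peak of 60 ran from 216633130 to 216634059 in exon 1 of 4, and the IGFBP5 peak from 216694092 to 216694737. The number of DNA copies of these regions in the cells, and whether their chromatin was open, were not measured in the files.

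The base composition of the starts was compared using the RefSeq promoter windows of 300 bases, which were on hand for 31 of the 46 genes. The 15 not covered were IL7, IL15, LIF, CSF1, CCL2, CCL5, MMP1, MMP3, MMP9, MMP13, PLAT, CTSB, TIMP2, IGFBP7 and TNFRSF11B. Each gene was counted with 1 window. Further windows of IL1A, PLAU and SERPINE2 (G+C 41.3%, 48.7% and 54%) and of IGFBP2 (55.3% and 56.7%) were left out, and these overlapped no peak. The windows kept for PLAU, SERPINE2 and IGFBP2 had 70%, 73.7% and 70%, so the choice of window raised the values of these genes. In the windows kept, secretory genes with a promoter peak were G+C-rich, with a median of 67.5% over 18 genes and a range of 55 to 77%. Those without one had a median of 49.3% over 13 genes, from 36.3% in MMP10 to 66.3% in AREG. All protein-coding genes differed the same way, with medians of 67.7% and 57%. CXCL12 was the highest at 77%. IL6, with 49.3%, was the 1 gene without a promoter peak in the table whose window overlapped a peak. Among the 18 genes with a promoter peak, 16 had a window that overlapped a peak, and IGFBP6 and MMP14 had theirs just before it.

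**Figure D4:**
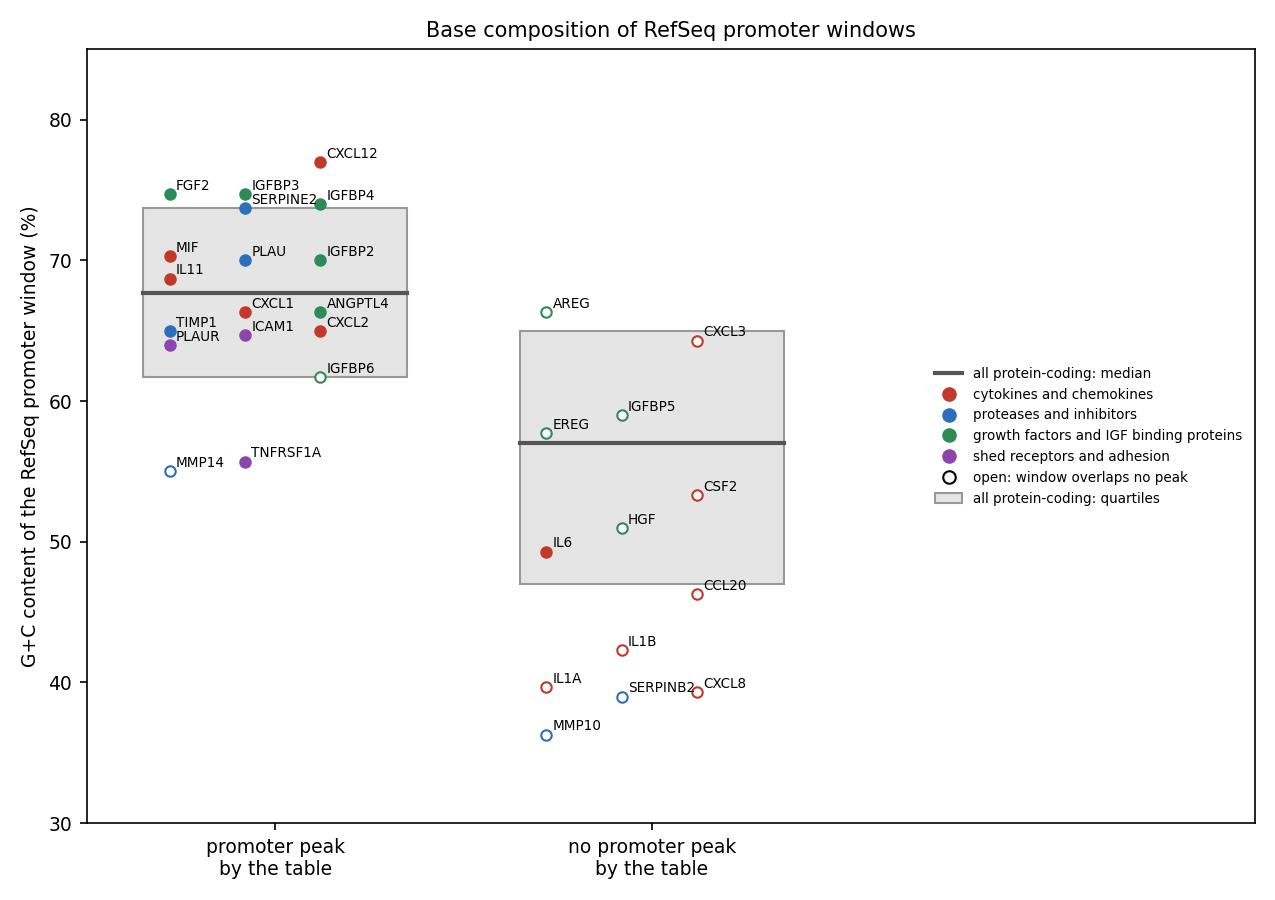
G+C content (%, vertical axis) of the 300-base RefSeq promoter window of 31 genes, with and without a promoter peak in the table, coloured by role and open where no peak overlaps the window; grey boxes give the quartiles and the line the median of all protein-coding genes. The 18 genes with a promoter peak lie between 55 and 77%, and of the 13 without one, IL1A, IL1B, CXCL8, SERPINB2, CCL20 and MMP10 lie below the lower quartile of 47%.

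TATA words were common in these windows, mostly in genes without a promoter peak. The letters TATAAA occurred in 10 of the 31 windows (32.3%, interval 16.7 to 51.4%) and in 9.13% of the windows of all protein-coding genes. They occurred in 7 of the 13 secretory genes without a promoter peak (53.8%, interval 25.1 to 80.8%) and in 3 of the 18 with one (16.7%, interval 3.58 to 41.4%). The 7 were IL1A, CXCL8, CCL20, MMP10, SERPINB2, AREG and EREG, and the 3 were ANGPTL4, IGFBP4 and ICAM1. In all genes the shares were 15% without and 4.6% with a promoter peak. The order was thus the same in the secretory genes and in all genes. Windows of genes with a promoter peak were thus richer in G+C and held TATA words less often. The part of either was not tested. Only the exact letters TATAAA were counted, at any place in the window. The word of IL1A lay 239 bases before the start, and the letters tatataa in the IL11 run were not counted.

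Words of the factors that drive the secretory programme were also counted in the windows. An NF-kB word was in 8 of 31 windows (25.8%, interval 11.9 to 44.6%) against 12.6% of all, in 4 of the 18 with a promoter peak and in 4 of the 13 without one. CXCL1, CXCL2, CXCL3 and IGFBP5 held 2 each. An AP-1 word was in 4 of 31 (12.9%, interval 3.63 to 29.8%) against 3.52%, namely IL1A, IL11, CXCL8 and PLAUR. A C/EBP word was in 5 of 31 (16.1%, interval 5.45 to 33.7%) against 7.88%. CCAAT was in 9 of 31 (29%) against 35.6%. The ETS word CCGGAAGT was in none of the 31, where the interval allows up to 11.2%, against 6.26% of all. The core word of RONIN and ZNF143, TACANNTCC, was in 1 of 31, at FGF2 (3.23%, interval 0.0816 to 16.7%), against 4.58%. Both strands were searched, each motif was counted whether or not it overlapped another, and these are letters in a window rather than sites.

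Most of the listed regulators of the secretory programme had a promoter peak. In a list of 30 such regulators, 27 had one (90%, interval 73.5 to 97.9%), against 54.5% of all protein-coding genes and 54.3% of the secretory genes. The list was chosen with earlier results of these data known, so its share is no test of regulators as a class. The highest scores were 447 at SQSTM1, a selective autophagy receptor, and 203 at NFKBIZ, an inhibitor-family cofactor of NF-kB. The SQSTM1 peak lay on chromosome 5 from 179818112 to 179824465, and the NFKBIZ peak on chromosome 3 from 101848877 to 101850076. The NF-kB subunits each had a promoter peak, with 169 at REL, 126 at RELA, 122 at RELB, 75 at NFKB2 and 36 at NFKB1. The factors CEBPB and CEBPD had 183 and 163. The 3 regulators without a promoter peak were CHUK, STING1 and NOTCH1. The median highest promoter score of the 27 was 68, near the 63 of all genes.

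Receptors of the secreted factors had promoter peaks in 14 of 28 genes (50%, interval 30.6 to 69.4%), near the share of all genes. IGF1R, the receptor of the ligands that IGF binding proteins hold, had 240 on chromosome 15 from 98647119 to 98650647. IL6R, the receptor of IL-6, had 201 on chromosome 1 from 154404561 to 154406505. The chemokine receptor genes CXCR1, CXCR2 and CXCR4 were each the nearest gene of no peak. The 30 regulators and 28 receptors are a choice of well-known genes and not complete lists, and no test compared them with the secretory genes.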

How the data were processed

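PML ChIP-seq and input DNA of MDA-MB-231 cells were sequenced as 2 libraries each. Per the submitters' processing notes, the tools were MACS2 2.1.1.20160309, HOMER 4.11.1, BWA 0.7.12, Trimmomatic 0.36 and Picard 2.0.1 with hg38; their settings and the peak threshold are not stated in the sources. The authors merged the duplicates before peak calling, per the series' design text. The deposited table gives each peak a start, an end, a whole-number score from the authors on an unstated scale, a signed distance from TSS in bp, an annotation and a nearest gene. The table gives no read depth and no input signal.

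Peaks were matched to the 46 genes by the nearest-gene column, and to 20037 RefSeq protein-coding genes of GRCh38.p14 by gene ID. Gene extents, promoter windows and their sequences are from RefSeq tables of that assembly, whose coordinates are those of hg38. Shares have exact Clopper-Pearson 95% intervals, and medians have exact order-statistic intervals; the calculation was tested on simulated data. No hypothesis test was run. The 46 genes, their roles, the regulator and receptor lists and the motifs were chosen with earlier results of these data known. Named in full were the 3 highest promoter scores and 2 highest distal peaks of each role, the 3 genes with most peaks, genes of the clusters and genes nearest to no peak; other peaks named were chosen after their values were seen. Values of 1 gene of the receptor list are not reported here. Alternatives changed the promoter and distal distances, which peaks and genes were counted, and the gene naming. Python 3.11.15, numpy 2.4.6, pandas 2.3.3, scipy 1.17.1 and matplotlib 3.10.9 were used.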

Additional observations from a re-analysis of the deposited data

How the results depend on the processing

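Of 51 alternative values, 39 stayed within the interval of the reported value and 12 moved outside it. With the 5000 highest-scoring peaks, the promoter share was 17.4% in the 46 genes (8 genes: IL11, CSF1, MIF, PLAU, CTSB, ANGPTL4, IGFBP7 and TNFRSF1A) against 16.2% of all protein-coding genes. By role it was 16.7% in cytokines and chemokines, 15.4% in proteases and inhibitors and 18.2% in growth factors and binding proteins. With these peaks the median highest promoter score was 111 against 139 in all genes, the distal share 0% against 2.05%, and the median number of peaks per gene 0. Counting only genes named in the table gave 78.1% against 78.9%, and 75% in proteases and inhibitors. The distal share was 19.6% (all genes 20.6%) with peaks at or above the median score and 10.9% (all genes 12.8%) beyond 50000 bp. The share of peaks between 1000 and 10000 bp was 22.9% without the peaks of TNFRSF1A, PLAU and IL1B, the genes with most such peaks. It was 42% without those of CXCL12 and IL15. The 22.8% of all genes was not trimmed in either case. Counting any peak within 1000 bp of the RefSeq start could be applied to the 31 genes with a window and gave 64.5% against 65.1%; it redefines promoter peaks only and gave no value for distal peaks or peak numbers. Under the alternatives run, the promoter share of the 46 genes minus that of all genes ran from -3.31 to 1.16 percentage points. No paired analysis was possible because the table holds 1 merged list. Without replicates or depth, a gene with no peak may lack PML or lie under the detection limit.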
